A study of Homo sapiens with 3 samples.

Results

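The transcriptome of an HT1080 line transfected with wild-type RECK was compared with that of a line transfected with RECK/4NQ, a form that lacks 4 N-glycosylation sites. HT1080 is an established human fibrosarcoma line. The comparison uses 2 of the series' 3 samples, the arrays of HT1080-RECK and HT1080-RECK/4NQ, and covers the 41091 of 54675 probe sets that carry exactly 1 gene symbol, which stand for 19775 genes. Both lines were made with the pZeoSV2(+) vector, were selected and grown with 50 µg/mL Zeocin in medium with 10% fetal calf serum, and are labelled as overexpressing their form of RECK. In RECK/4NQ the asparagines at positions 86, 200, 297 and 352 were changed to glutamine. The array of HT1080-Zeo, the mock-transfected line, is quoted beside both as a reference. Clone or pool is not stated for any line. Each line has 1 array, which allows neither a test nor an SD, and a difference due to the form of RECK and one that arose in a single transfected line cannot be told apart.

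RECK is a glycoprotein held at the cell surface by a lipid anchor. It is known to inhibit the gelatinases MMP2 and MMP9, the membrane protease MMP14 and the sheddase ADAM10, and to act with the receptor ADGRA2 in WNT7 signalling, and its level is often low in invasive tumours. N-linked glycans are added in the endoplasmic reticulum as a protein is made, and they bear on its folding, its passage to the cell surface and its binding to partners. The comparison asks which transcripts differ between cells given RECK with and without these glycans.

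Values are linear MAS5 signals as deposited. A gene is given by its brightest probe set, and any signal under 12.2 (the 40th percentile of the values, called the floor) was set to 12.2 before log2 ratios of RECK over RECK/4NQ were taken. A gene is called higher or lower at a difference of 2-fold or more, and where 1 array lies below the floor the fold is a lower bound, written "at least". The median log2 ratio over the 15980 genes at or above the floor on either array was -0.06. As an error scale, the robust spread of log2 ratios between genes fell with signal, from 0.67 for the 2816 genes with a mean signal of 25 to 50 to 0.33 for the 1535 genes above 1000. The log2 ratios of the 2 brightest probe sets of 1 gene differed with a robust spread of 0.77 and 0.17 in these ranges. Ratios of dim genes are therefore much less precise than those of bright genes. The hybridisation controls, which are spiked into the cocktail, were brighter on the RECK array by 0.37 ± 0.15 (log2, SD over 9 probe sets), while the labelling controls differed by 0.05 ± 0.15 (12 probe sets). Scaling both arrays to the hybridisation controls gave 582 higher and 2107 lower genes in place of 1141 and 886.

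Of 8 mesenchymal markers 1 was higher in RECK and 7 were neither higher nor lower. Vimentin, VIM, had a signal of 10704 in RECK, 10611 in RECK/4NQ and 10307 in Zeo, and fibronectin, FN1, one of 2707, 2639 and 2444. S100A4 was the higher one, at 117 in RECK, 57.6 in RECK/4NQ and 94.4 in Zeo, and CD44 was at 2735, 4147 and 3388. Among 7 epithelial markers, EPCAM, KRT19, CLDN4 and ESRP1 were below the floor on all 3 arrays, while the keratins KRT8 and KRT18 were bright on each, at 1039 to 9895. The summed signals of the blood markers at or above the floor were 148 in RECK and 150.0 in RECK/4NQ, and those of the endothelial markers 87.0 and 82.5.

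The RECK probe sets measured on both arrays did not differ between the lines beyond the error scale. The brightest of 5 probe sets had a signal of 387 in RECK, 442 in RECK/4NQ and 264 in Zeo, a log2 ratio of -0.19 between the transfected lines. Of the 4 probe sets measured on both arrays 2 were higher and 2 lower, with log2 ratios from -0.49 to 0.56. Apart from the brightest, their signals on these arrays were near the floor, at 12.4 to 25.1. The brightest is of a type that can also bind other transcripts. The sources do not say which of them the vector's insert would be read by. They are therefore no check of the labels or of the amount of transfected transcript.

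The proteases that RECK acts on and their inhibitors did not differ in one direction. MMP9, a gelatinase that degrades basement membrane collagen, had a signal of 203 in RECK, 2306 in RECK/4NQ and 1947 in Zeo. It was thus low on the RECK array alone, 11.4-fold below RECK/4NQ and at -8.72 spreads from the median of all genes. The other gelatinase, MMP2, read 2429, 1692 and 1307 on the same arrays, a log2 ratio of 0.52. MMP14, the membrane protease that activates pro-MMP2, had signals of 895, 1199 and 1248, and all of its 4 probe sets were lower in RECK than in RECK/4NQ, by log2 ratios of -0.74 to -0.35. ADAM10, a dim transcript here, was at 62.5, 45.5 and 84.0.

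Among the tissue inhibitors of metalloproteinases, TIMP3, which binds to the matrix, stood at 200 in RECK, 78.0 in RECK/4NQ and 60.3 in Zeo. It was 2.56-fold higher in RECK, and its 4 probe sets gave log2 ratios from 0.575 to 1.6, all in that direction. TIMP1, a secreted inhibitor, read 4921, 9116 and 9692, so RECK was the low array by 1.85-fold. TIMP2 was at 2805, 1912 and 2561, and TIMP4 was near the floor throughout. The aminopeptidase ANPEP, also called CD13 and known as a RECK-binding protein, had signals of 3338, 5563 and 5182.

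ADGRA2, the receptor that works with RECK in WNT7 signalling, was at 87.2 in RECK, 24.96 in RECK/4NQ and 62.4 in Zeo, 3.49-fold higher in RECK, and its 2 probe sets gave log2 ratios of 1.81 and 1.91. The ligand gene WNT7A was 3.06-fold lower in RECK at 16.5 against 50.4, close to the floor, and WNT7B was at 207 against 246. The list of RECK and its partners has 18 genes and includes RECK itself and TIMP1 to TIMP4. Of the 18, 3 were higher (ADGRA2, TIMP3 and the phosphodiesterase gene GDPD3), 2 lower (MMP9 and WNT7A) and 13 neither. GDPD3, at 44.8 against 22.2, was under 2-fold with median centring, quantile normalisation and hybridisation control scaling, and with higher floors. Its relative GDPD5 was at 1411 against 1085. Over all 19775 genes 5.77% were higher and 4.48% lower. The median of this list of 18 relative to all genes was -0.09, and it changed sign, to at most 0.03, with hybridisation control scaling and without shared probe sets.

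Of 22 metalloproteinase genes, 2 were higher (MMP15 at 83.0 against 30.0 and MMP28 at 95.8 against 29.2) and 2 lower (MMP9 and MMP25, the latter at 20.5 against 77.8). Among ADAM and ADAMTS genes 5 of 23 were higher and 3 lower. ADAMTS2, which cuts the propeptide off fibrillar procollagens, was at 203 in RECK, 28.3 in RECK/4NQ and 20.6 in Zeo. ADAMTS15, a proteoglycan-cleaving enzyme, was at 105, 17.5 and 17.7. Both were high on the RECK array. The lysosomal protease CTSB had a signal of 3080 in RECK, 937 in RECK/4NQ and 1134 in Zeo, and its 5 probe sets were all higher, with log2 ratios from 0.96 to 2.15.

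**Figure D1:**
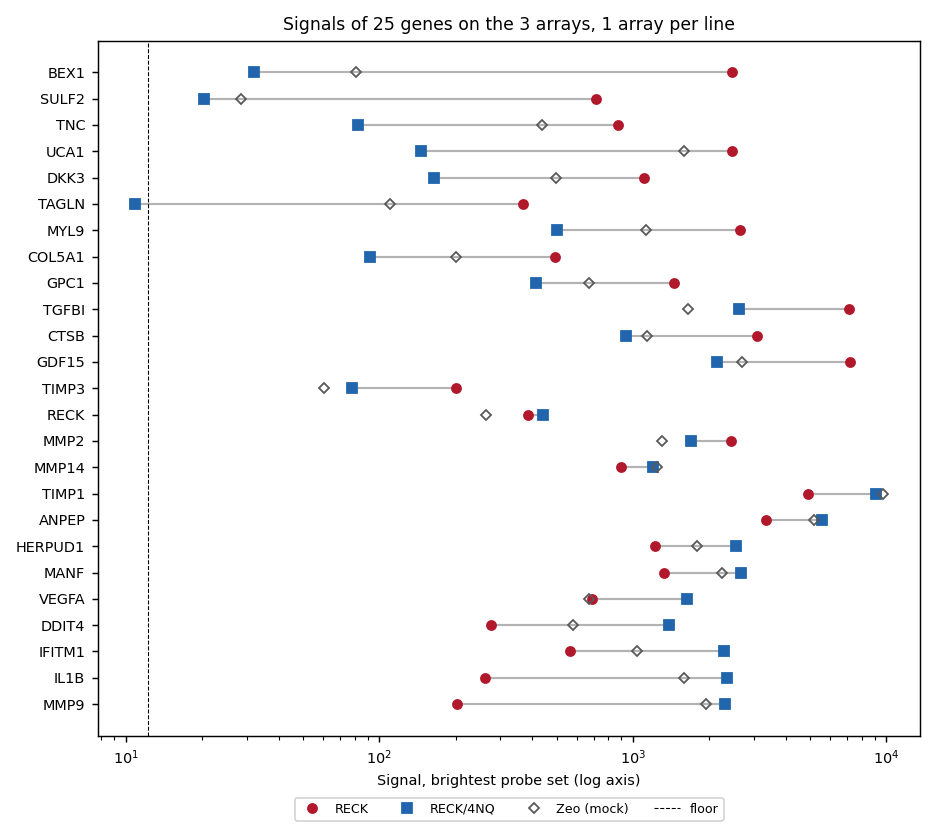
Signals of 25 genes on the RECK (circles), RECK/4NQ (squares) and Zeo (open diamonds) arrays, 1 array per line, on a log axis, with the floor as a dashed line. The genes are grouped from high in RECK at the top to low in RECK at the bottom. There MMP9 stands at 203 in RECK against 2306 and 1947. The signals of the brightest RECK probe set lie close together on the transfected lines.

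Over all genes, 1141 were higher and 886 lower in RECK than in RECK/4NQ. These were 10.3% of all genes. On single probe sets 5.11% were higher and 4.55% lower, 9.66% in all. Of the called genes 684 and 561 were measured on both arrays, and 173 and 86 lay more than 3 spreads from the median of all genes. Log2 signals correlated at 0.963 across the 12988 genes measured on both arrays, where genes are not independent replicates. Other probe sets of the called genes, where measured on both arrays, had the same sign in 67.7% of 322 cases for higher genes and 74.1% of 390 for lower genes. Far fewer of them reached 2-fold, 74 of the 322 and 79 of the 390, so most did not repeat the call. Of all 22087 measured probe sets 44.3% were above 0 and 55.7% below.

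The highest ratio belonged to BEX1, an X-linked adaptor gene best known in neurons, at 2469 in RECK, 32.0 in RECK/4NQ and 80.6 in Zeo. That is 77.2-fold, and it rests on 1 probe set. SULF2, an extracellular enzyme that removes sulfate from heparan sulfate, was at 714, 20.4 and 28.4, and its 2 probe sets gave log2 ratios of 4.27 and 5.13. UCA1, a noncoding RNA first described in bladder tumours, was at 2460.0 in RECK, 146 in RECK/4NQ and 1597 in Zeo, so here RECK/4NQ was the array that stood low. The mitochondrial CoA transferase gene SUGCT read 628 in RECK and 47.3 in RECK/4NQ, and the nucleobase transporter gene SLC43A3 459 and 46.0.

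TNC, the matrix glycoprotein tenascin, had a signal of 870 in RECK, 82.1 in RECK/4NQ and 436 in Zeo. It was 10.6-fold higher, with Zeo between both. The transcriptional coregulator MN1 was 10.2-fold higher, the RNA-binding gene RBPMS2 9.80-fold, the neuronal phosphoprotein gene CRMP1 8.74-fold and JMJD8 8.37-fold. SPRR2B, SPTB, EPHB3, NME3 and ADAMTS2 followed at 7.2-fold to 7.52-fold. Several of these folds depended on the floor. With a floor at the 80th percentile the log2 ratio was 0.53 for MN1, 0.64 for RBPMS2 and 0.55 for CRMP1. For SPRR2B it was 0.365, for SPTB 0.02, for EPHB3 0.61 and for NME3 0.35, so each of these was then under 2-fold. JMJD8 and ADAMTS2 passed 2-fold at every floor tried, but ADAMTS2 had a log2 ratio of 0.54 without shared probe sets. The steroid dehydrogenase HSD17B2 was at 259 in RECK and below the floor in both other lines, at least 21.2-fold higher. SOX7, a transcription factor of vessel and endoderm development, was at least 12.3-fold higher at 151, with CDR2L, ADAMTSL1 and CYSRT1 at least 9.93-fold to 10.6-fold higher. With a floor at the 80th percentile SOX7 (0.66), CDR2L (0.45), ADAMTSL1 (0.39) and CYSRT1 (0.35) also had log2 ratios under 1.

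At the other end, TMEM132D, a membrane protein gene, had signals of 17.6 in RECK, 212 in RECK/4NQ and 214 in Zeo, 12.1-fold lower in RECK. MMP9 followed. KCNAB2, a potassium channel subunit, was at 73.1, 774 and 582, NMRAL1, an NADPH sensor, at 79.1, 787 and 994, and MYH10, nonmuscle myosin IIB, at 24.8, 253 and 278. For each of these, RECK was the low array and RECK/4NQ lay near Zeo. The cytokine gene IL1B was 9.01-fold lower in RECK at 260.0 against 2343, with log2 ratios of -3.17 and -2.47 from its 2 probe sets. AMPH, a gene of membrane traffic at synapses, differed in another way, at 29.2 in RECK, 272 in RECK/4NQ and 93.3 in Zeo.

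Further low genes were the phosphoinositide phosphatase MTMR1 (8.69-fold), the semaphorin SEMA6B (7.96-fold), the exchange factors MCF2L (6.33-fold) and PREX1 (5.46-fold), the receptor GPR84 (6.16-fold), the secreted lectin CHI3L1 (6.04-fold), ELFN1 (5.62-fold) and SIRPB1 (5.48-fold). ARMCX2, an armadillo-repeat gene of the X chromosome, was below the floor in RECK at 12.1, at 188 in RECK/4NQ and at 251 in Zeo, at least 15.4-fold lower. GAGE1, of the cancer-testis antigens, was at least 9.36-fold lower, ELP2 at least 7.77-fold, the transcriptional repressor GFI1 at least 6.45-fold and GPR21 at least 6.14-fold. SEMA6B, GPR84, ARMCX2, GAGE1, ELP2, GFI1 and GPR21 were under 2-fold with a floor at the 80th percentile. Of the 5 ELP2 probe sets, however, the only one measured on both arrays read 13.6 in RECK against 15.0 in RECK/4NQ. ELP2 was under 2-fold with averaged probe sets and without shared probe sets. Relatives of BEX1 did not share its difference: BEX2 was at 247 against 179 and BEX3 at 2614 against 3826, both picked after their values were seen.

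**Figure D2:**
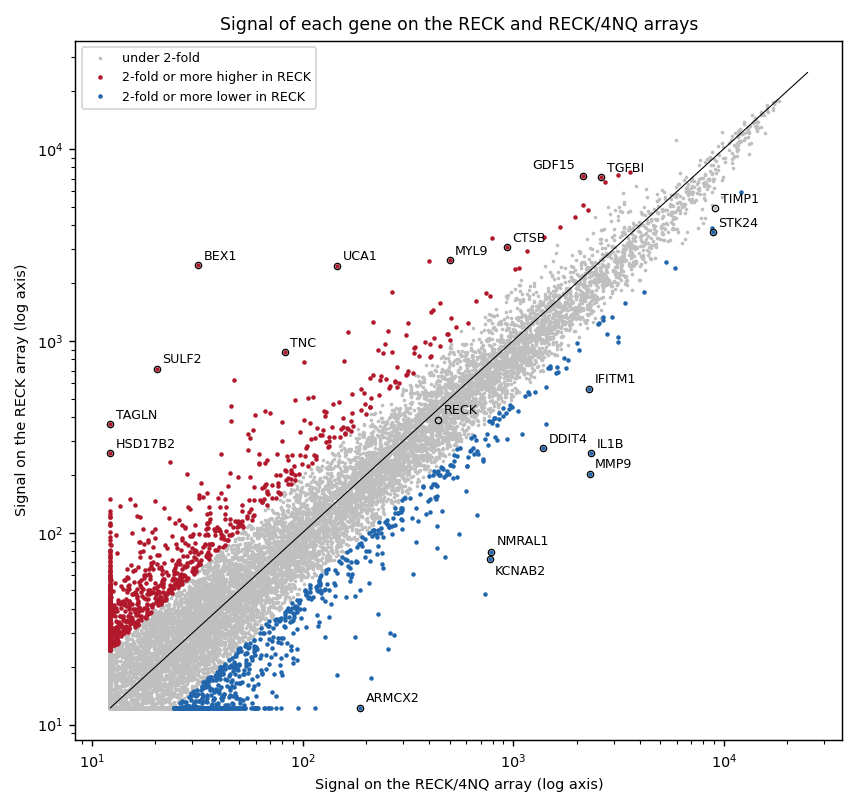
Signal of each of the 19775 genes on the RECK/4NQ array (horizontal) and on the RECK array (vertical), both log axes, with signals below the floor drawn at the floor and the line of equal signal. Red points are the 1141 genes at least 2-fold higher in RECK and blue points the 886 lower, and the named genes lie far outside the cloud except TIMP1 and RECK.

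Genes measured by several probe sets give a check within each array. Of 5497 genes with at least 2 probe sets measured on both arrays, every one of them was at least 2-fold higher in 39 genes and at least 2-fold lower in 36. Among the higher ones, COL5A1, a chain of type V collagen, had 3 probe sets with log2 ratios from 2.42 to 2.56, and SFN, the epithelial 14-3-3 protein and a p53 target, 3 probe sets from 1.70 to 1.79. CITED2, a coactivator-binding protein, had 1.43 and 1.46, the lymphocyte receptor gene SLAMF9 1.80 and 2.24, and the NAD synthesis gene QPRT 1.47 and 2.05. The proteoglycan BGN, biglycan, had 1.66 and 2.7. Among the lower ones, NMRAL1 had -3.32 and -3.22, MTMR1 -3.14 and -3.12, CHI3L1 -2.60 and -2.39, C6orf52 -2.12 to -1.54, and PRKAR1B, a kinase regulatory subunit, -1.41 and -1.36.

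By signal difference, the most abundant transcripts that were higher in RECK were GDF15 (7199 against 2148), TGFBI (7127 against 2620), RPL34 (7285 against 3152), RPS27L (6710.0 against 2725) and the calcium-binding protein gene S100A2 (7622 against 3594). RPS27L, a p53-inducible ribosomal protein relative, was higher in all 3 of its probe sets. RPL34 had 1 probe set, and of 49 ribosomal protein genes 2 were higher (RPL34 and RPS24), 0 lower and 47 neither, with a relative median of 0.05. Lower in RECK were the kinase STK24 (3674 against 8881), the methyltransferase NNMT (3859 against 8762), the nuclear import receptor KPNA2 (2384 against 5885), MRPL57 (2583 against 5313) and the metallothionein-like MT1HL1 (5996 against 12094). Metallothioneins are near-identical in sequence, so the MT1HL1 signal can include its relatives.

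Targets of p53 were the list furthest from the rest. p53 is the transcription factor that answers DNA damage and other stress by slowing division or inducing death. Of 25 targets with a probe set, 7 were higher in RECK, 0 lower and 18 neither. Their median relative to all genes was 0.82, and 22 of the 25 lay above the median of all genes. Over the 10 alternatives of scaling, floor and probe set this median ran from 0.71 to 0.89. Single calls were less steady: AEN (0.89), TP53INP1 (0.77) and MDM2 (0.695) had log2 ratios under 1 with hybridisation control scaling, and GDF15 (0.56), TP53INP1 (0.38) and MDM2 (0.44) with averaged probe sets.

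The polo-like kinase PLK2 had a signal of 256 in RECK, 75.2 in RECK/4NQ and 113 in Zeo. GADD45A, a growth arrest and repair gene, was at 563, 189 and 292. The stress cytokine GDF15 was 3.35-fold higher in RECK by its brightest probe set, a type that can also bind other transcripts, while its other measured probe set read 27.7 against 28.9. In these genes RECK was the highest of the 3 arrays and RECK/4NQ the lowest. PLK3 was 2.59-fold higher, the exonuclease AEN 2.4-fold, TP53INP1 2.21-fold and MDM2, the ubiquitin ligase that restrains p53, was at 92.0 against 44.0. CCNG1 and TIGAR fell just short at log2 ratios of 0.999 and 0.994, and CDKN1A, which inhibits cyclin-dependent kinases, was at 3138, 1616 and 2170, a ratio of 0.96. The 3 members below the median of all genes were FBXO22, XPC and POLH. Cell cycle and replication genes, in contrast, had 0 of 46 higher, 1 lower (the helicase subunit MCM6, at 253 against 525) and 45 neither, with a relative median of 0.01 that changed sign with quantile normalisation and with hybridisation control scaling.

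**Figure D3:**
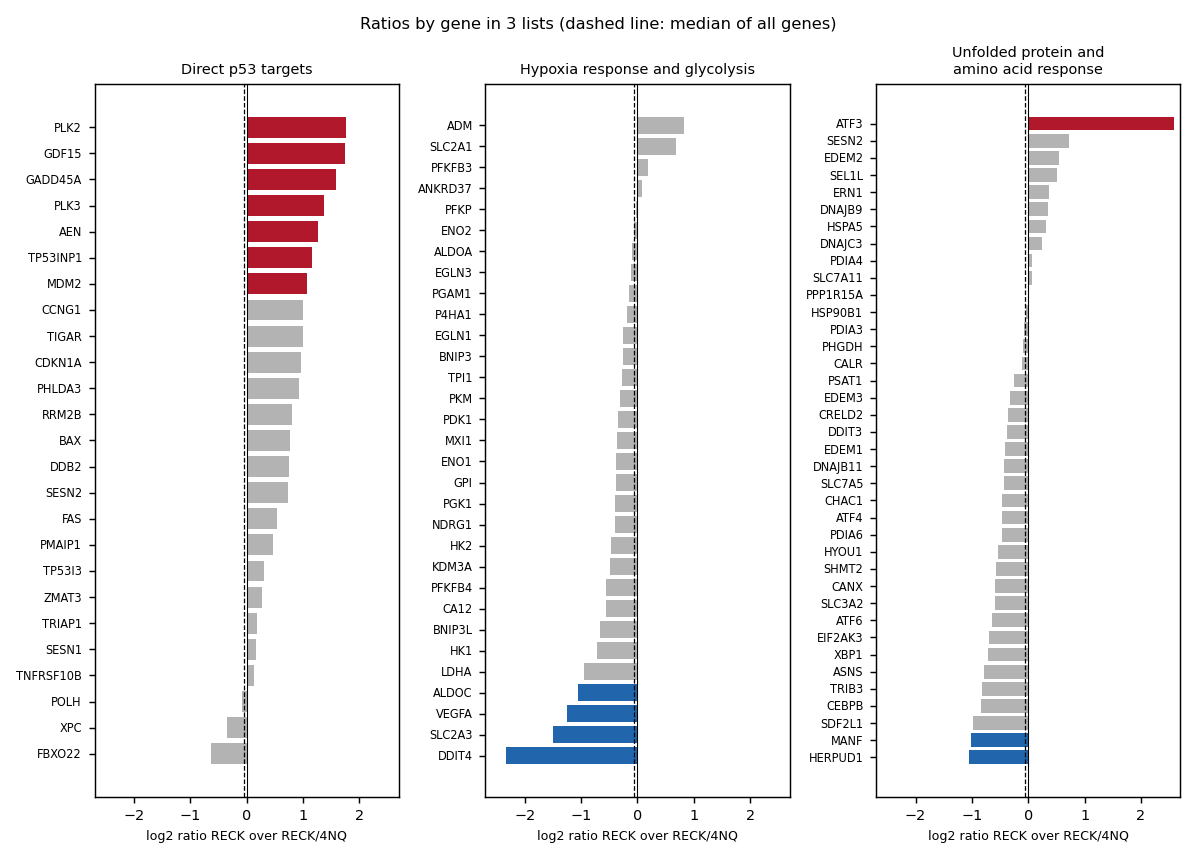
Log2 ratio of RECK over RECK/4NQ for each member at or above the floor of 3 lists (bars, linear axis from 0), with the median of all genes as a dashed line. Red bars mark members at least 2-fold higher and blue bars members at least 2-fold lower: 7 of the p53 targets are red, 4 hypoxia and glycolysis genes are blue, and the stress response list is mostly below 0 except for ATF3 and a few others.

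Contractile and focal adhesion genes lay above the median of all genes in 19 cases and at or below it in 8. TAGLN, an actin-binding protein of smooth muscle, had a signal of 367 in RECK, 10.9 in RECK/4NQ and 110 in Zeo, at least 30.0-fold higher. A second probe set gave 316 against 28.7, but another, the only one not shared between transcripts, gave 44.5 against 61.7, a log2 ratio of -0.47. MYL9, the myosin light chain of smooth muscle and nonmuscle cells, was at 2636, 500.4 and 1125, and both of its probe sets were higher. The smooth muscle actins ACTG2 and ACTA2 were at 56.5 against 14.4 and 1184 against 534, and the actin-binding CALD1, caldesmon, at 144 against 64.2. For these 5 genes RECK was highest and RECK/4NQ lowest, with Zeo between them.

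Of the 28 genes of this list 5 were higher, 1 lower (MYH10) and 22 neither, with a relative median of 0.29 that ran from 0.24 to 0.32 over the alternatives. Single calls were less steady. With averaged probe sets ACTA2 (0.38), ACTG2 (0.98) and CALD1 (0.68) had log2 ratios under 1. Of the 5 higher genes, MYL9 alone stayed past 2-fold in every alternative. Many of these genes are known targets of serum response factor, which binds the CArG box. In the RefSeq promoter table for GRCh38.p14, 250 bases before and 50 after each listed start, a CArG box (both strands) was present in 454 of 35116 promoters, 1.29%. It was present in 7 of the 24 list members that have an entry: ACTG2, FHL2, CNN2, TES, TPM4, MYLK and ACTN1. All 7 had log2 ratios above 0, from 0.09 for ACTN1 to 1.97 for ACTG2, and only ACTG2 passed 2-fold. FHL2, a LIM-domain protein, was at 4960.0 in RECK, 2812 in RECK/4NQ and 2840.0 in Zeo. Of the 832 genes at least 2-fold higher that have an entry, 2.04% held the motif, against 0.871% of 689 lower genes and 1.70% of the 12647 genes at or above the floor. A match describes these letters in this window and no binding was measured. The 250 bases before the start are shown for the member with the highest ratio and for the brightest member past 1.5-fold, with the CArG boxes in capitals.
ACTG2 chr2:73892758-73893007 (plus strand): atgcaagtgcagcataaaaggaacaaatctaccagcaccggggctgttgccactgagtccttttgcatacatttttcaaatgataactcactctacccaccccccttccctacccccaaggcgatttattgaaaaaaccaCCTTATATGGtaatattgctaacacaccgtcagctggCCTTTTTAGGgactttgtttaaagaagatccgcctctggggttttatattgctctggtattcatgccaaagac
FHL2 chr2:105438514-105438763 (minus strand): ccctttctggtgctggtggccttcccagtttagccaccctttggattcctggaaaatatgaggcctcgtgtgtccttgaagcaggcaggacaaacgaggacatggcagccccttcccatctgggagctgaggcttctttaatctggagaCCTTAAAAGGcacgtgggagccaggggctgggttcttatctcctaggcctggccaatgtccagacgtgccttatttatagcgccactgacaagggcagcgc

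Matrix genes were also higher more often than lower, as were all genes, at 5.77% higher and 4.48% lower. Collagen genes had 5 of 26 members higher, 1 lower (COL15A1) and 20 neither. Among the higher ones COL5A3 and COL4A6 were below the floor in RECK/4NQ. Their relative median of 0.17 ran from 0.0014 to 0.22 over the alternatives. Besides COL5A1 (493 in RECK, 92.0 in RECK/4NQ, 201 in Zeo), COL18A1, the source of endostatin, was at 96.3, 24.0 and 25.7. Glycoproteins of the matrix had 5 of 36 higher, 1 lower and 30 neither, with a relative median of 0.27 that ran from 0.15 to 0.29. The basement membrane proteoglycan HSPG2 (182, 33.0 and 135) was low in RECK/4NQ. For TNC and the linker protein NID2 (101, 19.2 and 35.3) Zeo lay between both. TGFBI, a TGF-beta-induced adhesion protein, was at 7127, 2620.0 and 1649, and THBS1, thrombospondin, at 1089, 488 and 518, so these stood high in RECK. THBS2 went the other way, at 55.9, 168 and 69.5.

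Collagen-modifying enzymes had 4 of 17 higher, 0 lower and 13 neither, with a relative median of 0.27. PCOLCE, which speeds the cutting of procollagen, was at 271 in RECK, 55.4 in RECK/4NQ and 58.9 in Zeo, and P3H1, a prolyl hydroxylase, was at the threshold, at 1004 against 502. Among proteoglycans and their enzymes 4 of 30 were higher and 2 lower. Beside SULF2 and BGN these were the heparan sulfate carriers GPC1, at 1453, 416 and 674, and GPC4, at least 9.0-fold higher at 110. CSPG4, a chondroitin proteoglycan of mural cells, was lower at 15.3 against 58.0. Integrins showed no common direction, with 3 of 22 higher and 2 lower. ITGA10, a collagen receptor chain, was 4.01-fold lower at 109 against 436, with Zeo at 265.

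Endoplasmic reticulum stress genes lay mostly below the median of all genes. The unfolded protein response raises chaperones and protein disposal genes when misfolded protein builds up, and the amino acid response shares its factor ATF4. Of 38 genes 2 were lower (HERPUD1 and MANF), 1 higher (ATF3) and 35 neither. The relative median was -0.34, with 26 members at or below the median of all genes and 12 above, and it ran from -0.36 to -0.29 over the alternatives. The shift is thus made of many small differences.

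HERPUD1, which takes part in disposal of misfolded protein, had a signal of 1225 in RECK, 2542 in RECK/4NQ and 1792 in Zeo. The secreted stress factor MANF was at 1324, 2673 and 2248, and SDF2L1, a chaperone cofactor, at 700.1, 1387 and 995.2. All 3 were highest in RECK/4NQ and lowest in RECK, while the log2 ratios of HERPUD1 and MANF were under 2-fold with quantile normalisation and trimmed mean scaling, and that of HERPUD1 also when its probe sets were averaged. XBP1, a main transcription factor of the response, was at 440 against 719, the pseudokinase TRIB3 at 1247 against 2202 and CEBPB at 4368 against 7822. The chaperone HSPA5, also called BiP and a standard marker of the response, did not share this direction, at 1141 in RECK, 922 in RECK/4NQ and 968 in Zeo. CALR and PDIA3 were within 1.08-fold. ATF3, a stress-induced factor, was 5.97-fold higher in RECK at 327 against 54.8. Its other probe sets read 140 against 69.3 and 49.6 against 60.9, the last being the only one not shared, with a log2 ratio of -0.295.

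Promoters of this list often hold the stress elements that ATF6 and XBP1 are known to bind. The element ERSE, CCAAT followed after 9 bases of any kind by CCACG, was found on either strand in 27 of all 35116 promoters (0.0769%) and in 7 of the 35 list members with an entry. ERSE-II, ATTGG followed after 1 base by CCACG, was found in 19 promoters (0.0541%) and in 3 list members. The ERSE-II genes HERPUD1, SDF2L1 and HYOU1 had log2 ratios of -1.05, -0.99 and -0.54. The ERSE genes ranged from -0.71 for XBP1 and -0.59 for CANX to 0.31 for HSPA5, and of the 7 only HSPA5 lay above 0. The 250 bases before the start are shown for the 3 ERSE-II genes and for the ERSE genes at both ends of that range, with the elements in capitals.
HERPUD1 chr16:56931892-56932141 (plus strand): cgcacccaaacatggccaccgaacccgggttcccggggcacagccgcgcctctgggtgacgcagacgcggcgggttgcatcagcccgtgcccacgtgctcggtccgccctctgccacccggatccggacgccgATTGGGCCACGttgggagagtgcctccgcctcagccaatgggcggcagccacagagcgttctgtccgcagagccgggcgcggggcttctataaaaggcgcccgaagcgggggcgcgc
SDF2L1 chr22:21642052-21642301 (plus strand): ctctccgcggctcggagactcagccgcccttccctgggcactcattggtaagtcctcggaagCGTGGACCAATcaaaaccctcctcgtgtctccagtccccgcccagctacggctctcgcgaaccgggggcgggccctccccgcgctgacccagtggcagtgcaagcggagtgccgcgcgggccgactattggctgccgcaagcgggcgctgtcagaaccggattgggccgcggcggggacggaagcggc
HYOU1 chr11:119057206-119057455 (minus strand): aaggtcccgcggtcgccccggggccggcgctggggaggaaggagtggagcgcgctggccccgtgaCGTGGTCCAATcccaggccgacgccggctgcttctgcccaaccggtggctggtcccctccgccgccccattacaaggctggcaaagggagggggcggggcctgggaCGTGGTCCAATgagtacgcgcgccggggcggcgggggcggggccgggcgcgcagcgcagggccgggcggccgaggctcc
XBP1 chr22:28800570-28800819 (minus strand): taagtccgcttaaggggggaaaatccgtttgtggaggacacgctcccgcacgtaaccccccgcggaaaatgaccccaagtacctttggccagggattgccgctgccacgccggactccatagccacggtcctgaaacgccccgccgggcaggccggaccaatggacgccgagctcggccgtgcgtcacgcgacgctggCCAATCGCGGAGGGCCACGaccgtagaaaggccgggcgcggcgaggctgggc
HSPA5 chr9:125241344-125241593 (minus strand): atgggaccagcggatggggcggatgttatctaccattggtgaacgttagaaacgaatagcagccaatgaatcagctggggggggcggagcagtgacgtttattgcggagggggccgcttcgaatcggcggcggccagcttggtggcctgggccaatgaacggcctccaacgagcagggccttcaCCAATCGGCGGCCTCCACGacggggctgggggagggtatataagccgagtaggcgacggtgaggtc

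The machinery that makes and trims N-glycans differed little. Of 46 genes 0 were higher, 3 lower and 43 neither, and the relative median was -0.09. The lower members were ST6GAL1, a sialyltransferase of the Golgi, at 47.0 in RECK, 177 in RECK/4NQ and 142 in Zeo, ALG5, which loads glucose for the glycan precursor, at 242, 721 and 490, and ALG9, a mannosyltransferase, at 150.1, 429 and 255. ALG5 lies on chromosome 13, whose genes as a whole were lower in RECK. DPAGT1, the first enzyme of the pathway, was at 1128 against 1977. The catalytic transferase subunits STT3A and STT3B went in opposite directions, at 167 against 296 and 131 against 96.5.

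Hypoxia and glycolysis genes lay below the median of all genes with few exceptions. Of 31 genes 4 were lower, 0 higher and 27 neither, with a relative median of -0.31, and 26 lay at or below the median of all genes. The relative median ran from -0.335 to -0.17 over the alternatives. DDIT4, an inhibitor of mTOR signalling, had a signal of 275 in RECK, 1394 in RECK/4NQ and 579 in Zeo, 5.07-fold lower. The growth factor VEGFA was at 687, 1631 and 669, and its 4 probe sets were all lower, with log2 ratios from -1.25 to -0.415. The glucose transporter SLC2A3 was at 155, 435 and 249, with 3 probe sets from -1.59 to -1.04. For these 3 genes RECK/4NQ was the highest array. ALDOC was at 395 against 816, LDHA, lactate dehydrogenase A, at 4132 against 7954, and HK1 at 2698 against 4454. The transporter SLC2A1 ran the other way, at 2007 against 1253.

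Cytokine genes had few bright members. In the interleukin-1 family 3 of 17 were lower (IL1B, its antagonist IL1RN and the adaptor MYD88) and 2 higher (IL1RAP and IRAK3, each below the floor in RECK/4NQ). IL1B was the brightest of these, at 260.0 in RECK, 2343 in RECK/4NQ and 1583 in Zeo. Of 31 NF-kB subunits, targets and chemokines 3 were lower (TNF, CCL5 and CXCL3) and 2 higher (CCL2 and CXCL2). CCL2, a monocyte attractant, had a signal of 94.6 in RECK against values under the floor in RECK/4NQ and Zeo, a ratio of at least 7.73-fold. The NF-kB subunit gene NFKB1 was at 328 against 549. The relative medians of these lists were -0.20 and -0.12. Over the alternatives they ran from -0.57 to -0.01 and from -0.20 to -0.09, so the first came close to 0. Both medians were smaller in size than their error scales, 0.22 and 0.14. With 1 array per line these scales can rest only on differences between genes, which are not replicates, so they are no test. Interferon-stimulated genes had 3 of 30 higher (IFIT3, IFI27 and USP18, all under 70 on each array) and 1 lower, with a relative median of -0.20 that was 0.09 without shared probe sets. The lower one, IFITM1, an antiviral membrane protein, was bright, at 562 in RECK, 2290.0 in RECK/4NQ and 1033 in Zeo.

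ERK pathway feedback genes had 3 of 31 members in each direction. The ETS factor ETV4 was at 266 in RECK, 673 in RECK/4NQ and 711 in Zeo, with log2 ratios of -1.34 and -1.5 from its 2 probe sets, and SPRY4, a feedback inhibitor, at 134, 297 and 381. ETV1 was also lower, while the higher ones, DUSP8, EGR1 and EGR3, were below 70 on all arrays. The other 2 probe sets of EGR1 were lower in RECK, at log2 ratios of -0.26 and -0.55. Of 34 genes of TGF-beta signalling 4 were higher and 2 lower, with a relative median of 0.07. BAMBI, a decoy receptor, was at 428 in RECK, 66.7 in RECK/4NQ and 41.7 in Zeo, 6.43-fold higher, CCN2, a matricellular protein, at 2376, 1016 and 2707, and INHBB at 60.2, 27.4 and 22.3. PMEPA1, another target, was at 1151, 888 and 378, above Zeo in both lines. TSC22D1, a gene of chromosome 13, read 1045 against 3149 in its brightest probe set, 3.01-fold lower, while an unshared one read 40.7 against 17.9, a log2 ratio of 1.19.

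YAP and TEAD targets were split, with 4 of 21 higher and 4 lower. Higher were CCN2, GADD45A, CRIM1 (323, 121 and 291, all 3 probe sets above 2-fold) and the coagulation receptor F3 (165, 67.4 and 137). Lower were AMOTL1, LATS2, PTPN14 and FOXF2, led by AMOTL1 at 150 against 401. The list median of 0.31 came to -0.01 when probe sets were averaged. Among 41 Wnt genes 5 were higher and 3 lower. DKK3, a secreted Dickkopf protein, was at 1105 in RECK, 164 in RECK/4NQ and 498 in Zeo, and its 4 measured probe sets ran from 0.87 to 2.75. Intermediate filament genes had 3 of 19 higher and 0 lower: KRT7 (655 against 236), KRT80 (1313 against 505) and INA.

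Other lists held single strong members. NRG1, an ERBB ligand, read 253 in RECK and 96.8 in RECK/4NQ, and 3 of 5 measured probe sets were higher. PLXNB2, a semaphorin receptor, was at 2931 against 1165. HOXD10 and HOXD11, neighbours in the HOXD cluster, were below the floor in RECK/4NQ and at 74.1 and 71.0 in RECK. Of 25 HOX genes 4 were higher (these and the dimmer HOXC8 and HOXC11), 0 lower and 21 neither, with a relative median of -0.02. MAGEC2, a cancer-testis antigen, was 7.62-fold higher at 772 against 101, while its unshared probe set read 14.4 against 24.96, a log2 ratio of -0.80. The prostaglandin E synthase PTGES was at 89.5 in RECK, 346 in RECK/4NQ and 48.0 in Zeo, and the actin-like ACTL8 at 50.3, 187 and 5.58, so both were highest in RECK/4NQ. Cholesterol synthesis genes, NRF2 targets and housekeeping genes had relative medians between -0.08 and -0.03.

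**Figure D4:**
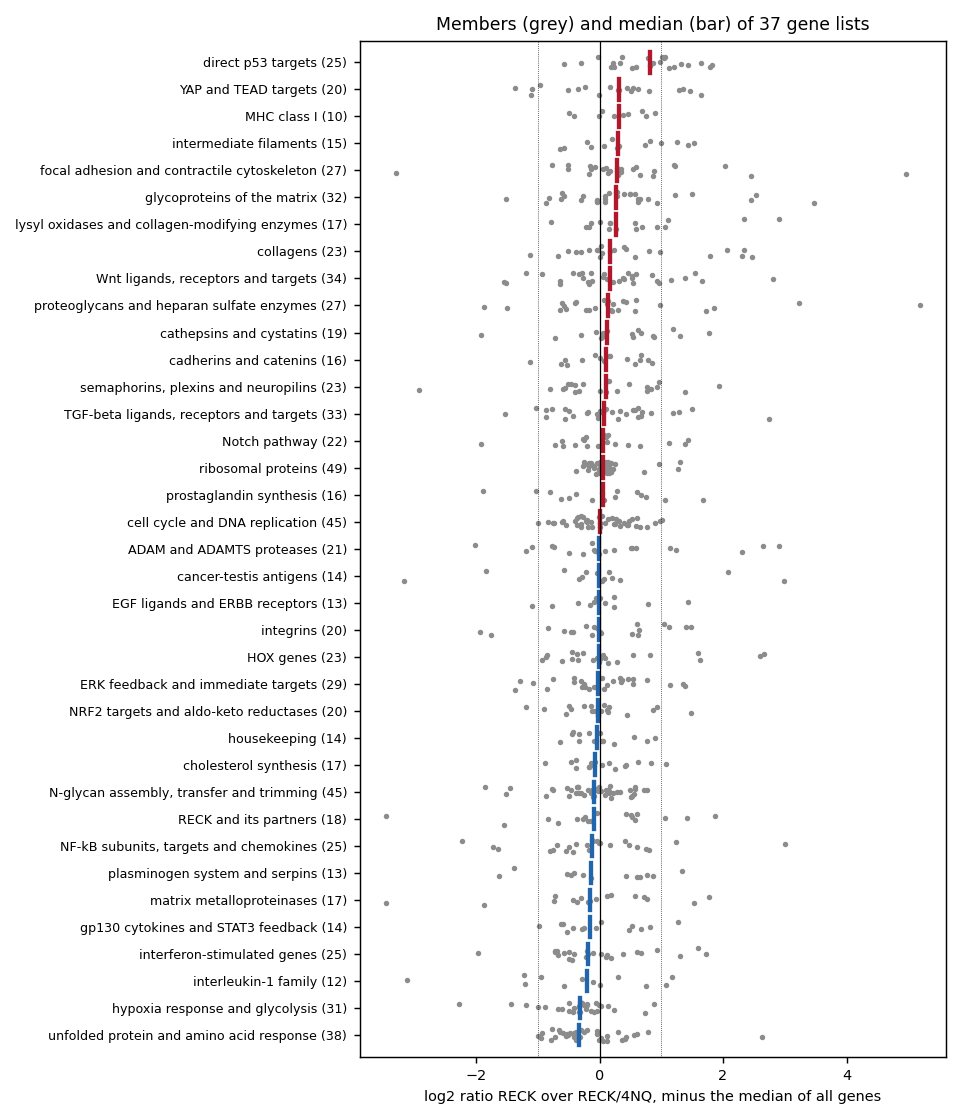
Log2 ratio of RECK over RECK/4NQ minus the median of all genes, for the members at or above the floor (grey points, number in brackets) of 37 gene lists, with the median of each list as a bar. Dotted lines mark 2-fold; p53 targets have the highest median, 0.82, and the unfolded protein and amino acid response the lowest, -0.34, while most lists centre near 0.

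Chromosome 13 stood out by position. Its 297 genes at or above the floor had a median log2 ratio of -0.32 relative to all genes, while the medians of the other chromosomes lay between -0.14 and 0.14. On it 63 genes were lower in RECK, 21.2%, against 5.25% of the 15627 genes on other chromosomes, and 17 were higher. Among its 67 brighter genes (mean signal of at least 100, both arrays measured) 27 were lower and 1 higher, with a relative median of -0.70, and on the other chromosomes 170 of 6194 such genes were lower. Against Zeo the median of the 297 genes was -0.18 in RECK and 0.06 in RECK/4NQ, each relative to all genes. The summary by chromosome and the motif counts were added after the data had been seen.

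Of 15464 windows of 21 neighbouring genes, the lowest relative medians were in a run from UGGT2 to PCCA on chromosome 13, at -1.01 with 12 of 21 genes lower and 0 higher, and in one from SPART-AS1 to KBTBD7, also on chromosome 13, at -0.90 with 9 lower and 0 higher. The windows' middle 99% lay between -0.54 and 0.57. In the first run STK24 was at 3674 in RECK, 8881 in RECK/4NQ and 6531 in Zeo, TM9SF2, a Golgi membrane protein, at 308, 933 and 439, and ZIC2, a zinc finger factor of the forebrain, at 304, 838 and 670. In the second, SLC25A15, a mitochondrial ornithine carrier, was at 452, 991 and 722, ALG5 at 242, 721 and 490, and PROSER1 at 172, 409 and 267. RECK was the lowest of the 3 arrays for each of these. MRPL57, TSC22D1, LATS2, WDFY2, MCF2L and GAS6, a ligand of TAM receptor kinases that was at 1085 against 2801, lie on the same chromosome.

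Another low run, at -0.69, covered histone genes of chromosome 6 from SLC17A4 to H1-3, where most signals were under 60 but the linker histone H1-2 was at 209 against 484. The highest runs were weaker. One from SRSF4 to SPOCD1 on chromosome 1 had a relative median of 0.72, with the membrane protein SERINC2 at 1244 in RECK, 316 in RECK/4NQ and 403 in Zeo and SPOCD1 at 861, 242 and 223. Those on chromosomes 5 and 3, at 0.69 and 0.68, were made mostly of genes with signals under 100 on both arrays. Chromosome 22 had the highest median among the others, with higher signals in 51 of 391.

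**Figure D5:**
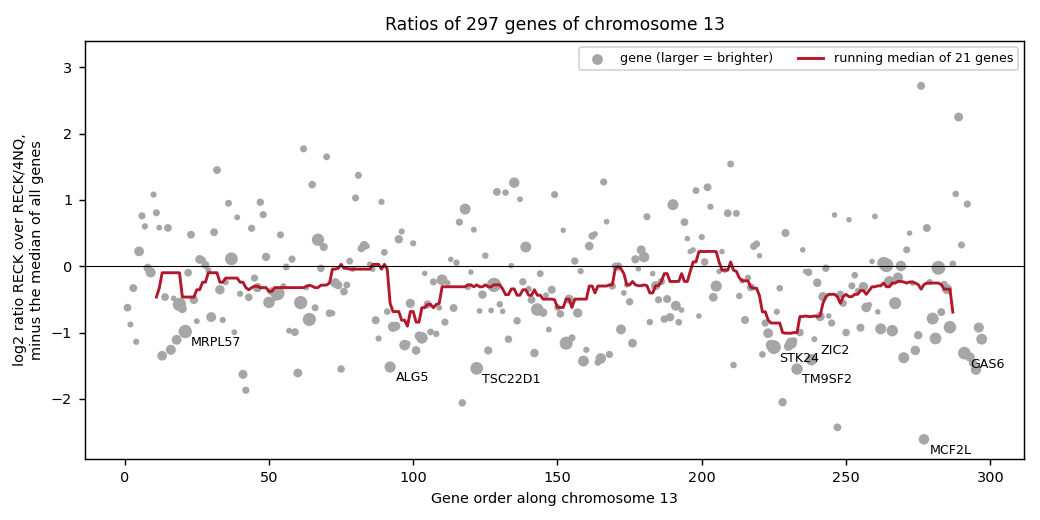
Log2 ratio of RECK over RECK/4NQ minus the median of all genes for the 297 genes of chromosome 13 at or above the floor, in gene order from the first to the last (points, larger where brighter), with the running median of 21 genes as a line. The line lies below 0 along most of the chromosome and reaches its lowest stretch around STK24.

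The mock line shows on which array a gene departed. The 3 arrays are shared among all such comparisons, so these counts are a description. Of 639 genes higher in RECK with all 3 signals at or above the floor, Zeo lay within 1.5-fold of RECK and not of RECK/4NQ for 320, within 1.5-fold of RECK/4NQ and not of RECK for 182, between both for 92 and outside both for 36. CRIM1 and CCN2 had Zeo near RECK, SULF2, CTSB and ADAMTS15 near RECK/4NQ, and TNC and BEX1 between. Of 535 genes lower in RECK, Zeo lay near RECK for 110, near RECK/4NQ for 327, between for 54 and outside for 31. MMP9, IL1B and MYH10 belong to the larger group, and VEGFA to the smaller.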

How the data were processed

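Total RNA of each line was hybridised to 1 Affymetrix human whole-genome array. The deposited values are MAS5 signals, a linear intensity for each probe set, per the submitters' processing notes and the file header; the scaling target is not given in the sources used here. The number of arrays limits the precision.

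Control probe sets and those with no or several symbols were left out. Values below the 40th percentile were raised to it, log2 ratios were taken, and each gene was given by the probe set with the highest mean log2 floored signal over the 3 arrays. The deposited arrays were not rescaled. Because each line has 1 array, genes were counted at 2-fold with no test. Python 3.11.15, numpy 2.4.6 and pandas 2.3.3 were used. Alternatives changed the scaling, the floor, the fold and the choice of probe set.

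Named genes were, in each direction, the 15 largest ratios measured on both arrays above the 60th percentile with no other measured probe set of the opposite sign, up to 5 such genes below the floor on 1 array, up to 10 genes whose measured probe sets all passed 2-fold, and the 5 largest signal differences, with RECK and its main partners and the largest ratios of each list and run described. Other genes were picked after their values were seen. The comparison, the genes and the 37 lists were chosen with earlier results of these data known, so they are not independent evidence. Gene names are from the platform annotation, and promoter sequences from RefSeq (GRCh38.p14).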

Additional observations from a re-analysis of the deposited data

How the results depend on the processing

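No paired analysis was possible because each line has 1 array, and for the same reason no replicate could be left out. The counts of 1141 higher and 886 lower genes depended on the floor: 2318 and 1888 with a floor at the 20th percentile, 469 and 382 at the 60th, 167 and 184 at the 80th, and 680.0 and 524 with log2(signal + 16). Averaging probe sets gave 713 and 507, a 3-fold limit 329 and 193, and probe sets counted singly 2099 and 1871. Scaling to the hybridisation controls gave 582 higher and 2107 lower, 21.6% higher against 56.3% as reported, and moved the median of all genes by -0.35. Trimmed mean scaling moved it by 0.10, with 66.0% of calls higher, and median centring and quantile normalisation kept both counts within 1.5 times.

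Of the 37 lists, 18 kept the sign of their relative median under all 10 alternatives, the p53, stress response, hypoxia, contractile and matrix glycoprotein lists among them. This is a limited check, because every alternative reuses the same arrays. Scaling an array by a common factor also moves a list and all genes nearly alike. The median of YAP and TEAD targets was -0.0097 with averaged probe sets, and that of interferon-stimulated genes 0.0945 without shared probe sets. Of 159 named genes past 2-fold, 71 were under 2-fold with a floor at the 80th percentile and 43 with averaged probe sets. Without shared probe sets 124 of them remained, and 14 were under 2-fold, KRT7, MMP15, MMP25, MMP28, PLXNB2 and STK24 among them. In that setting the log2 ratios of TAGLN (-0.47), ATF3 (-0.295), MAGEC2 (-0.80), TSC22D1 (1.19), IL1RN (0.33) and ETV1 (0.29) had the other sign. The cause was not tested.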
